A study of Arabidopsis thaliana with 2 samples.

Results

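Extensins and extensin-like wall proteins made up 23 of the 22937 loci with reads in root tips of Arabidopsis thaliana. They were the loci whose protein name in the deposited table contained the word extensin, apart from names that also contained Pollen Ole e, and transcripts of a locus were summed. RNA of the primary root tip was compared between the wild-type accession Col and the mutant atphb3, whose name refers to PROHIBITIN 3 (PHB3), an inner mitochondrial membrane scaffold. Each genotype had 1 library, so no difference below has a replicate check and no p-value is given. Plated seeds of both were kept for 3 days at 4 °C, and the seedlings were grown at 20 °C in days with 16 h of light and nights of 8 h. The labels gave no seedling age and no allele name, a label headed number gave no unit, and a second sentence of the extraction protocol named shoots beside roots. The table assigned 7451022 reads to Col and 7384348 to atphb3. PHB3 itself had 915 reads in the Col library and 863 in the second, a ratio of 0.952 (0.866 to 1.05), so its mRNA gave no check of the label, and every direction below rests on the label (hence "the atphb3-labelled library" throughout).

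Extensins are rod-like glycoproteins of the plant cell wall, built from repeats of a serine followed by several prolines. The prolines are hydroxylated and decorated with arabinose chains, and tyrosines between the repeats are crosslinked by peroxidases, which ties the proteins into a network in the wall. In roots many extensin genes are active in root hairs, the tubular outgrowths of epidermal cells. Hybrid forms join an extensin stretch to a leucine-rich repeat domain (the LRX proteins, which bind secreted RALF peptides) or to a membrane-bound kinase (the PERK proteins, proline-rich extensin-like receptor kinases).

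By the names in the deposited table the 23 loci comprised 15 proline-rich extensin-like family proteins, 2 numbered extensins (EXT3 and EXT4), 2 leucine-rich repeat extensins (LRX1 and LRX2), 3 receptor kinases (PERK1, PERK4 and PERK10) and 1 extensin-like protein (ELP). RefSeq gave a symbol for 12 of them, and the others are called by their locus. Gene positions were taken from the deposited table, which names no build, while sequences carry RefSeq positions. The repeats are shown here because they are what the word extensin stands for, and because members that differed little between the libraries carried them too. Each line holds 120 bases of coding sequence read from the RefSeq genome TAIR10.1 on the gene's strand, and capitals mark a serine codon followed by 3 or more proline codons.
EXT3 (chr1:7454725-7454844, minus strand): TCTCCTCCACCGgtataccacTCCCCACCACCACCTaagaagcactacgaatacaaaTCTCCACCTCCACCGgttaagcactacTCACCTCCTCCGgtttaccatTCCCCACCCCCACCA
AT2G43150 (chr2:17945986-17946105, plus strand): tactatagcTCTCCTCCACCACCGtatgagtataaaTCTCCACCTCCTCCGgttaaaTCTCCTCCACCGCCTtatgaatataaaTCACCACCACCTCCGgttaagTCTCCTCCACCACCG
EXT10 (chr5:2041509-2041628, minus strand): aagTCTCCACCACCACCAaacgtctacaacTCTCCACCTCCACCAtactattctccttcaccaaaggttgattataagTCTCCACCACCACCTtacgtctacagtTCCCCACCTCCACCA
AT3G28550 (chr3:10703555-10703674, minus strand): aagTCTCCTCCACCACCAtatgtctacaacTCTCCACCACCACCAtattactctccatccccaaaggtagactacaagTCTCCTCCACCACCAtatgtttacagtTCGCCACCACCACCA
AT1G26250 (chr1:9084305-9084424, plus strand): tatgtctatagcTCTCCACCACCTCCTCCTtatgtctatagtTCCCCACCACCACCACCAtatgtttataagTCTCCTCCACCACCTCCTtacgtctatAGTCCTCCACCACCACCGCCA
LRX2 (chr1:23114394-23114513, plus strand): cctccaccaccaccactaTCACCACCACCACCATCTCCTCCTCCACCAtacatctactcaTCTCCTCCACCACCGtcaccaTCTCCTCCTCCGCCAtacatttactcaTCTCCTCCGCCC
PERK1 (chr3:8960459-8960578, plus strand): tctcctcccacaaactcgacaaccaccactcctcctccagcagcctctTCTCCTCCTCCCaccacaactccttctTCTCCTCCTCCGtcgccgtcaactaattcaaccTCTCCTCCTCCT
EXT3 and AT2G43150 were the most abundant members, and EXT10 and AT3G28550 stood for the members with differences of at least 4-fold. AT1G26250 carried dense repeats but differed less than 2-fold, whereas LRX2 and PERK1 represented the hybrid proteins. Over the whole coding sequence such runs numbered 41 in EXT3, 22 in AT2G43150, 44 in EXT10, 73 in AT3G28550, 35 in AT1G26250, 22 in LRX2 and 3 in PERK1. At least 1 run was found in 695 of 27562 RefSeq coding loci (2.52%) and at least 10 in 29 of them (0.105%), 18 of which were members. ELP and AT5G59170 had 0 runs, so the name of these members was not matched by this repeat.

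Reads of the family took up a larger share of the atphb3-labelled library. The members together had 135526 reads in Col, 1.82% of the library (95% exact binomial interval 1.81 to 1.83), and 300061 in the atphb3-labelled library, 4.06% (4.05 to 4.08). The ratio of these shares was 2.23 (2.22 to 2.25), and without EXT3 it was 3.41 (3.38 to 3.44). Here and below an interval on a ratio is a 95% Clopper-Pearson interval, taken on the reads of both libraries summed. The protocols name no molecular identifiers, so intervals cover counting error only and compare 2 libraries, not 2 genotypes. In a root tip, more cells of a type that makes extensins and more extensin mRNA per cell cannot be told apart.

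Of the 23 members, 19 were measured, meaning at least 50 reads in 1 or both libraries, and each of these 19 had at least 205 reads in Col and at least 327 in the other library. Levels scaled to the library total (CPM, 1 read being 0.134 CPM in Col) reached the 2-fold limit upward in the atphb3-labelled library for 14 of the 19, downward for 0, and stayed within it for 5. Among all 12931 measured loci 9.74% reached it upward and 10.1% downward. The members were chosen by protein name, after the ratios of CPM of these libraries had been seen, so nothing is read from their count against that background. The interval lay wholly beyond 2-fold on the higher side for 13 members and on the lower side for 0, against 5.34% and 6.38% of all measured loci. At a limit of 4-fold 8 members were higher and 0 lower, against 2.32% and 2.99%. The interval lay wholly above 1 for 17 members and wholly below 1 for 1, against 37.7% and 30.1%, and the log2 ratio was above 0 for 18, against 54.6%. The median log2 ratio of the measured members was 1.67, with a range from -0.35 to 3.12, and that of all measured loci was 0.08.

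**Figure D1:**
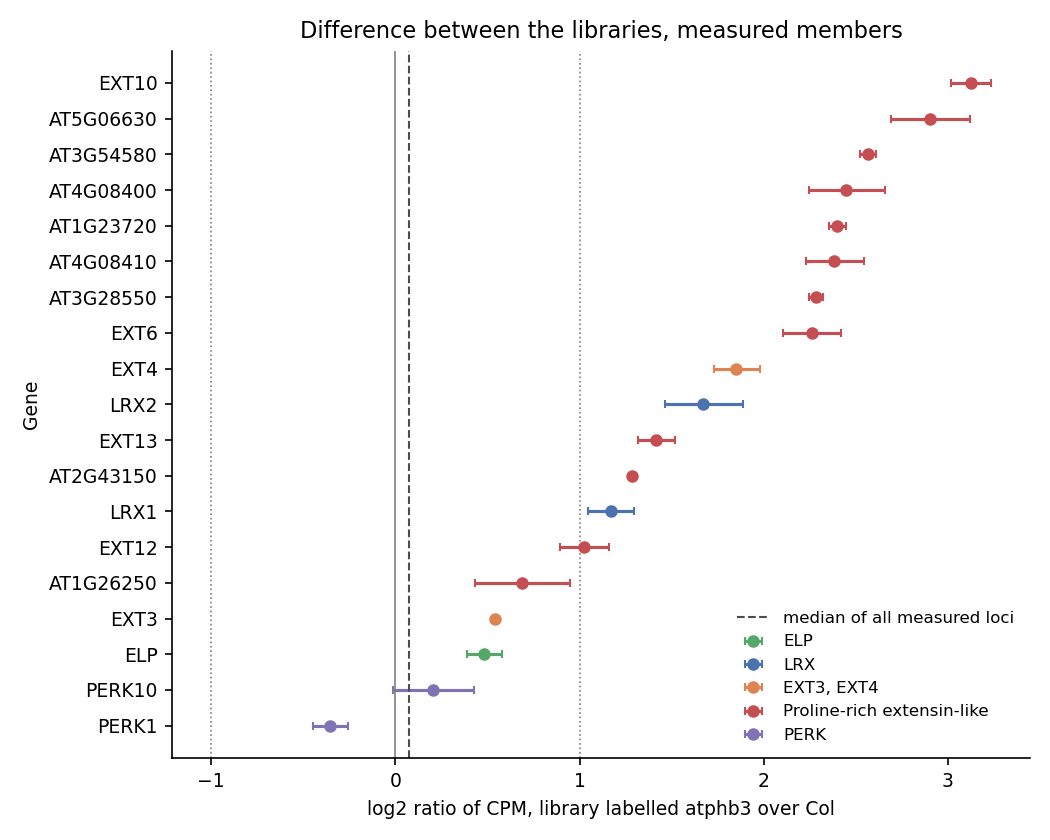
Log2 ratio of CPM (atphb3 over Col) of each measured member with its 95% counting interval, coloured by family name, on 1 library per genotype, with dotted lines at 2-fold and a dashed line at the median of all measured loci. The 8 members beyond 4-fold all carry the proline-rich extensin-like name, EXT10 is highest at 3.12, and PERK1 is the measured member below 0, at -0.35.

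The proline-rich extensin-like proteins, which include most repeat-only extensins of the list, held the differences of at least 4-fold. In this group 11 of the 12 measured members passed 2-fold upward and 1 was within 2-fold, with a median log2 ratio of 2.33. Their reads made up 0.651% of the Col library and 2.35% of the atphb3-labelled one, a ratio of 3.61 (3.58 to 3.65). Of these genes EXT10 (AT5G06640, chr5:2039859-2041928, minus strand) differed most. It had 792 reads in Col and 6846 in the atphb3-labelled library, and length-scaled levels (RPKM) of 51.3 and 448. This was 8.72-fold higher (8.10 to 9.40) in the latter. RefSeq places a protein-coding locus on the opposite strand over 29.7% of the EXT10 span, and reads of that part cannot be told apart.

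AT5G06630 lies near EXT10 on chromosome 5, on the same strand, with a gap of 2015 bases that holds 1 other listed locus. It had 205 and 1520 reads in Col and the atphb3-labelled library, or 18.6 and 139 RPKM, and was 7.48-fold higher (6.46 to 8.70). Both neighbours were higher in the atphb3-labelled library, and EXT10 had the higher RPKM of the pair in each library.

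The long extensins AT3G28550, AT3G54580 and AT1G23720, which have 1024, 957 and 919 codons, were abundant in both libraries. AT3G28550 (chr3:10700707-10703929, minus strand) was covered by 7064 reads in Col and 34113 in the atphb3-labelled library, and was 4.87-fold higher (4.75 to 5.0). AT3G54580 (chr3:20200688-20203782, minus strand) had 5180 and 30374 reads and was 5.92-fold higher (5.74 to 6.09). AT1G23720 (chr1:8388655-8391540, plus strand) had 4658 and 24355 reads and was 5.28-fold higher (5.11 to 5.44). By RPKM they stood at ranks 279, 446 and 468 among all loci in Col and at ranks 13, 19 and 27 in the atphb3-labelled library. AT3G54580 has 2377 bases away the gene HRGP1, a hydroxyproline-rich glycoprotein with 53 repeat runs whose deposited name lacks the word extensin. HRGP1 had 2464 reads in Col and 12218 in the atphb3-labelled one, a ratio of 5.0 (4.79 to 5.23), whose interval lay below that of its neighbour.

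The other members beyond 4-fold were less abundant. EXT6 (AT2G24980, chr2:10622453-10624132, plus strand) was covered by 411 reads in Col and 1953 in the atphb3-labelled library, a 4.79-fold difference (4.31 to 5.35). AT4G08410 had 389 and 2013 reads, a 5.22-fold difference (4.68 to 5.84). AT4G08400 had 231 and 1249 reads, a 5.46-fold difference (4.74 to 6.31). All were higher in the atphb3-labelled library. AT4G08400 and AT4G08410 are neighbours, 13744 bases apart with 0 listed loci between them. They share sequence: 56.1% of the 50-base windows of the AT4G08400 transcript and 43.7% of those of AT4G08410 occur in another locus, nearly all in each other. The sources used here do not say how reads that fit both were counted, so the split of reads between this pair is uncertain. No other member shared more than 3.88% of its windows with another member.

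AT2G43150 (chr2:17945893-17947022, plus strand), a short extensin of 212 codons, was the most abundant of the group. It had 27546 reads in Col and 66594 in the atphb3-labelled library, at 3531 and 8613 RPKM, and was 2.44-fold higher (2.41 to 2.47). By RPKM it was at rank 8 of all loci in Col and at rank 2 in the other library. EXT13 (AT5G35190) had 1135 and 3003 reads and was 2.67-fold higher (2.49 to 2.86). EXT12 (AT4G13390) had 691 and 1395 reads, at 61.5 and 125 RPKM. Its ratio of 2.04 (1.86 to 2.23) was the one just inside the 2-fold limit, and its log2 ratio of 1.03 became 0.96 with TMM scaling and 0.98 with median of ratios scaling, which is under the limit.

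AT1G26250 was the measured proline-rich extensin-like member within 2-fold, and the one just outside the limit. It had 205 reads in Col and 327 in the atphb3-labelled library, at 16.9 and 27.2 RPKM, a ratio of 1.61 (1.35 to 1.93). RefSeq places a protein-coding locus on the opposite strand over 98.9% of its span, and no strand-marking kit was named, so reads of the pair cannot be told apart. Its neighbour AT1G26240, 4261 bases away, had 1 read in Col and 9 in the atphb3-labelled one, and was not measured. AT5G19810, with 5 and 4 reads, and AT5G59170, with 1 and 4, were also too shallow to compare. Low read numbers thus left 3 of the 15 proteins of this name without a usable difference.

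**Figure D2:**
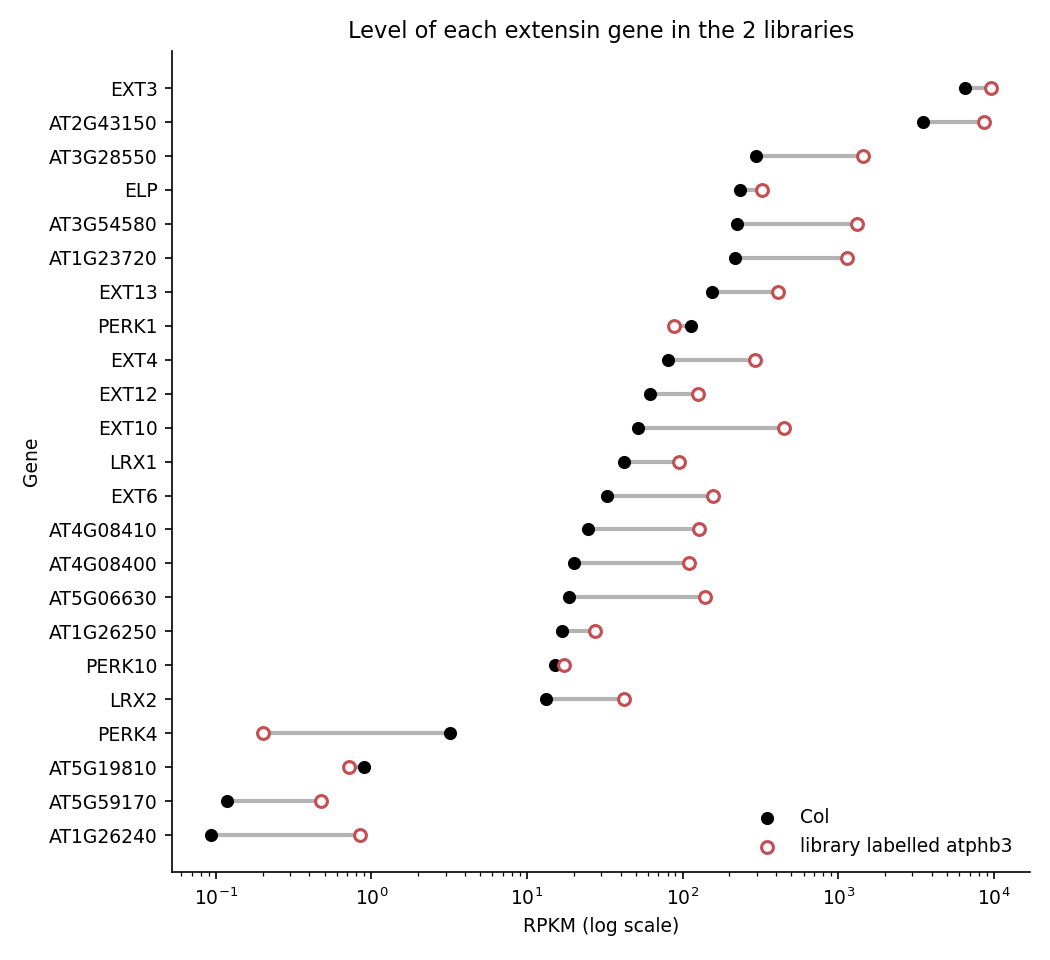
Level of each member in RPKM on a log axis in Col and in the atphb3-labelled library, 1 point per library joined by a line. EXT3 and AT2G43150 lie apart from the rest in both libraries, and the 4 members that were not measured lie at the bottom.

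The numbered extensins behaved unequally. EXT3 (AT1G21310, chr1:7453236-7455009, minus strand), which is needed for the cell plate in the embryo and can assemble into a scaffold, had 81441 reads in Col and 117405 in the atphb3-labelled library. Its RPKM was 6573 and 9561, a 1.45-fold difference (1.44 to 1.47), higher in the latter but under 2-fold. It was at rank 5 of all loci by RPKM in Col and at rank 1 in the atphb3-labelled library. A RefSeq locus on the opposite strand overlaps 29.6% of its span, and another overlaps 29.7% of that of EXT10. In these overlaps reads of the 2 strands cannot be told apart. EXT4 (AT1G76930, chr1:28895301-28896883, minus strand), a classical extensin, had 666 and 2384 reads, at 80.8 and 292 RPKM, and was 3.61-fold higher (3.31 to 3.94).

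EXT3 had more reads in the atphb3-labelled library but made up a smaller share of the member reads there. It held 60.1% of all member reads in Col and 39.1% in the atphb3-labelled library, while AT2G43150 held 20.3% and 22.2% and AT3G28550 held 5.21% and 11.4%. Among the 10 loci with the most reads, 2 were members in Col and 5 in the atphb3-labelled library. The latter were EXT3, AT2G43150, AT3G28550, AT3G54580 and AT1G23720.

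The order of the members per unit length differed between the libraries. In Col, EXT3 led AT2G43150 by 1.86-fold (1.84 to 1.89), and AT2G43150 led AT3G28550 by 12-fold (11.7 to 12.3). In the atphb3-labelled library these steps were 1.11-fold (1.1 to 1.12) and 6.01-fold (5.93 to 6.09). Only consecutive members were compared. In Col the interval held 1 for ELP with AT3G54580 and for AT3G54580 with AT1G23720, and for each consecutive pair in the run AT4G08400, AT5G06630, AT1G26250, PERK10 and LRX2. In the atphb3-labelled library it held 1 for AT4G08410 with EXT12 and for LRX1 with PERK1. The same was true of consecutive pairs among the lowest 3 members in Col and the lowest 4 in the atphb3-labelled library. EXT10 stood in position 11 among the members in Col and in position 6 in the other library.

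LRX1 and LRX2, which act together in the wall of growing root hairs, were both higher in the atphb3-labelled library. LRX1 (AT1G12040, chr1:4070124-4072567, plus strand) was covered by 762 reads in Col and 1701 in the atphb3-labelled one, at 41.8 and 94.3 RPKM, a ratio of 2.25 (2.07 to 2.46). LRX2 (AT1G62440) had 244 and 771 reads, at 13.2 and 42.1 RPKM. LRX1 was the more abundant of the pair per length in each library. Together they had 1006 and 2472 reads, a ratio of 2.48 (2.30 to 2.67).

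The receptor kinases were within 2-fold or too shallow to measure. PERK1 (AT3G24550, chr3:8960258-8963568, plus strand), whose relative in Brassica napus responds to wounding, had 2001 reads in Col and 1553 in the atphb3-labelled library. Its level was 113 and 88.5 RPKM, a ratio of 0.783 (0.732 to 0.837), and it was the measured member whose interval lay below 1. PERK10 (AT1G26150) had 322 and 368 reads, a ratio of 1.15 (0.990 to 1.34) whose interval held 1. PERK4 (AT2G18470), which acts in abscisic acid responses of the root, had 48 reads in Col and 3 in the atphb3-labelled library. It lay just outside the limit of 50 reads, and was 15.9-fold lower (5.11 to 79.6) on these few reads. Summed, the 3 kinases had 2371 and 1924 reads, a ratio of 0.819 (0.771 to 0.870).

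ELP (AT1G12090), which has no serine-proline run, had 1528 reads in Col and 2117 in the atphb3-labelled library, at 233 and 326 RPKM. Its ratio was 1.40 (1.31 to 1.49), above 1 but within 2-fold.

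**Figure D3:**
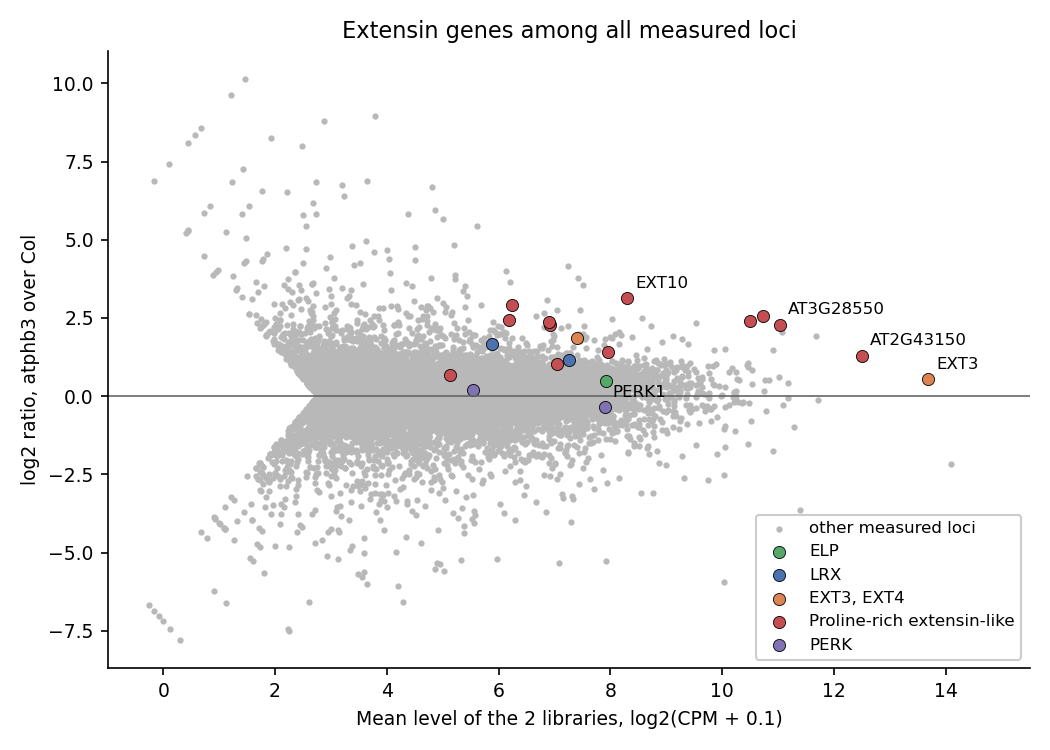
Log2 ratio (atphb3 over Col) against the mean log2 level (CPM + 0.1) for all 12931 measured loci, with the 19 measured members in colour by family name and a line at a ratio of 1. PERK1 is the member below the line, and EXT3 and AT2G43150 lie farthest right among the members.

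Sequence features that the name rule did not use differed among the members. The 8 proline-rich extensin-like members beyond 4-fold had 440 to 1024 codons, 30 to 73 serine-proline runs, and 3.42 to 3.86 tyrosine-X-tyrosine patterns per 100 codons, the pattern in which tyrosines can be linked within the chain. The 4 measured ones under 4-fold had 212 to 443 codons, 16 to 35 runs and 2.40 to 9.71 such patterns per 100 codons. The highest of these, 9.71, was in AT1G26250, and AT1G26240 beside it had 9.41. The receptor kinases had 2 to 7 runs, and the LRX proteins 22 and 25. Over the 19 measured members the number of runs and the log2 ratio had a Spearman correlation of 0.67, and over the 12 proline-rich extensin-like ones 0.46. Long coding sequences hold more runs, and the number of codons had a Spearman correlation with the log2 ratio of 0.33 over the 19 and of 0.48 over the 12. The points share both libraries and, for AT4G08400 and AT4G08410, part of their reads.

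**Figure D4:**
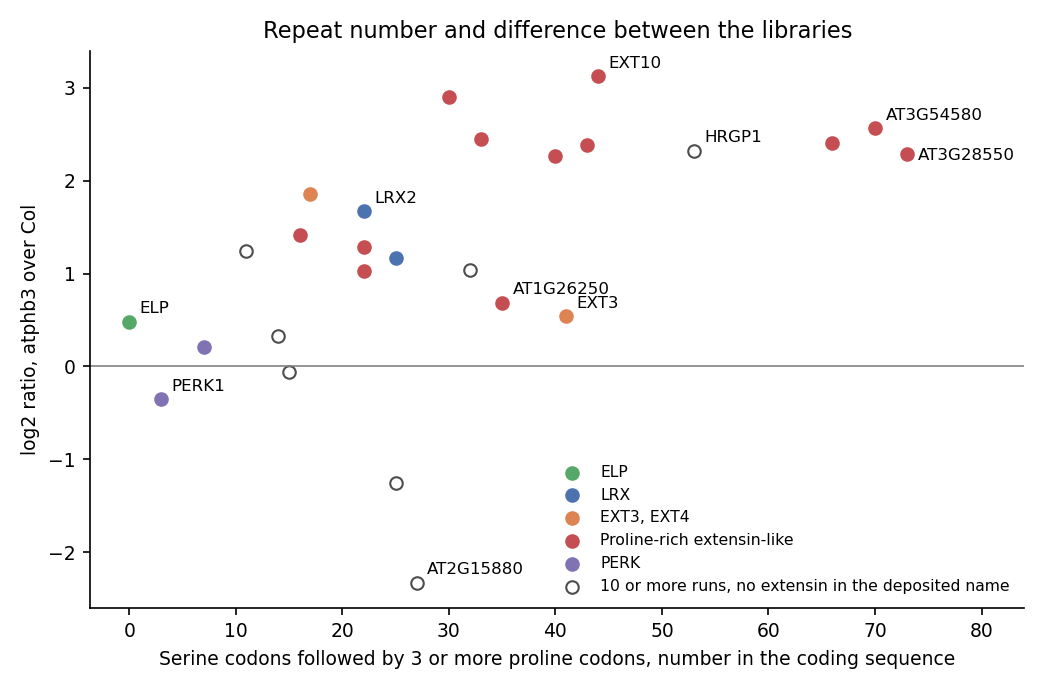
Number of serine-proline runs in the RefSeq coding sequence of each measured member (filled, coloured by family name) and of 7 measured loci with at least 10 runs outside the list (open), against the log2 ratio (atphb3 over Col). Members with 3 or fewer runs lie below a log2 ratio of 1, while EXT3, with 41 runs, and AT1G26250, with 35, also lie below it.

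Loci outside the list that carry the same repeats lay in both directions. There, 11 coding loci had at least 10 runs, a set drawn up after the member values were known, and 7 of them were measured. Of these 3 passed the 2-fold limit upward in the atphb3-labelled library, 2 passed it downward and 2 were within it. Among all measured loci 9.74% passed it upward and 10.1% downward. Beside HRGP1, LRX3, a leucine-rich repeat extensin by its RefSeq name, had 986 and 2011 reads, a ratio of 2.06. AT2G15880, named a leucine-rich repeat family protein and carrying 27 runs, had 482 reads in Col and 95 in the atphb3-labelled library, a ratio of 0.199 (0.158 to 0.248). The other locus that passed downward was AT3G19020, with 87 and 36 reads and a ratio of 0.418. Both are also on the list of pollen markers below. RefSeq names of 12 further listed loci contained extensin or EXT-like, and most of these loci were PERK receptor kinases. Of the 12, 7 were measured. The kinases PERK8, PERK9, PERK13 and PERK14 and the locus EXT-like were within 2-fold, and 2 loci were at least 2-fold higher. LRX3 was 1 of these 2 higher loci. The other was EXT11 (AT5G49080), deposited as a transposable element gene, with 218 and 1025 reads and a ratio of 4.74 (4.10 to 5.52).

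The sequence before the gene start was compared because members of the proline-rich group were higher together. The 500 bases before each RefSeq gene start were searched on both strands for the root hair element, a known sequence of root hair genes. They were also searched for a looser form of its core with either spacing, TGNNNNCACG or TGNNNNNCACG. The element requires G or T just before CACG, whereas this core allows any base there. Every match to the element thus holds this core, but a match to the core need not fit the element. The complete element was found in 2 members, LRX1 and LRX2, and in 1.46% of 27443 promoters. The core with either spacing was found in 13 of the 23 members, in 12 of the 14 that were at least 2-fold higher, and in 15.6% of all promoters. The 2 higher members without it were AT1G23720 and EXT4. Of other strings searched, CACGTG was in 1 member (PERK10, overlapping its core) and 9.35% of promoters, TTGAC in 14 members and 67.4%, and CTTGNNNNNCANG in 0 members and 3.40%. The core was chosen as a search term after the member values were known, and a match is a description, not a binding site. Matches of the forms TGCCACACACG, TGCTATACACG and TGTCTACACG have A just before CACG, which the element does not allow. The lines below show 1 match for each of the 12 higher members, from TAIR10.1, with capitals for the core and 9 flanking bases on each side in lower case. The strand given is that of the match, which is read in the direction of the core. For AT3G28550, AT3G54580, LRX1, LRX2 and AT2G43150 it is opposite to the strand of the gene.
EXT6 (chr2:10622317-10622345, plus strand): acttagaagTGCCACACACGaacgcaagt
AT5G06630 (chr5:2037906-2037934, minus strand): acttagaagTGCCACACACGaacgcaagt
EXT10 (chr5:2041984-2042012, minus strand): aattggaagTGCCACACACGaagccaact
AT4G08410 (chr4:5341255-5341283, minus strand): ttttggaagTGCCACACACGaacccaggt
AT4G08400 (chr4:5325441-5325469, minus strand): ttttggaagTGCCACACACGaacccaggt
EXT12 (chr4:7783702-7783730, plus strand): atttgtaagTGCCACACACGaacccaaat
EXT13 (chr5:13434022-13434050, plus strand): atttgaaagTGCTATACACGaacccaaga
AT3G28550 (chr3:10704071-10704098, plus strand): gtggaagcaTGTCTACACGatactagtt
AT3G54580 (chr3:20203968-20203995, plus strand): gtggaagcaTGTCTACACGatattagtg
LRX1 (chr1:4069892-4069919, minus strand): cctcaaactTGGACGCACGttcctagag
LRX2 (chr1:23112669-23112697, minus strand): atgacatatTGATAAGCACGtcgaaggag
AT2G43150 (chr2:17945433-17945461, minus strand): gttaagctaTGTTAATCACGatgacatct
Of these, 6 members shared the identical string TGCCACACACG at 55 to 76 bases before the gene start, and EXT6 and AT5G06630 also shared all flanking bases shown, as did AT4G08400 and AT4G08410. This string was picked after the matches had been seen, and was present in 10 of all 27443 promoters (0.0364%), 6 of them members. AT3G28550 and AT3G54580 shared another form, TGTCTACACG, at 62 and 58 bases before the gene start, which was found in 21 promoters (0.0765%), 19 of them of non-members. Differences of these other carriers went both ways, with measured ones from a ratio of 0.112 in BBX8 to 105 (67.7 to 172) in AT2G04050. The latter, a MATE efflux family protein, had 20 reads in Col and 2077 in the atphb3-labelled library. Between them lay, for example, scpl28 at 3.90. These examples were chosen after their values were seen. Members with the shared 11-base string spanned ratios from 2.04 in EXT12 to 8.72 in EXT10. Of the 4 other genes with that string, AT1G30680 was measured, with 286 reads in Col and 405 in the atphb3-labelled library, a ratio of 1.43 (1.23 to 1.67). The gene starts of EXT10, AT4G08410 and LRX2 in RefSeq coincide with the start codon, so their windows may include transcribed sequence. For LRX2 the deposited gene span (chr1:23111818-23115293, plus strand) begins before the RefSeq start. Its searched window, with the complete element and the core, lies inside that span and is not upstream of the deposited gene. Promoters of AT4G08400 and AT4G08410 shared 66.1% of their 20-base windows and those of EXT6 and AT5G06630 16.4%, so matches in these pairs are not independent.

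Measured enzymes that modify extensins stayed within 2-fold. Among all measured loci 9.74% passed 2-fold upward and 10.1% downward, so counts of 0 in lists this short are near the background. Prolyl 4-hydroxylases, which turn proline into hydroxyproline, had 7 measured members, of which 0 were at least 2-fold apart in either direction, with a median log2 ratio of 0.02. P4H2 had 790 reads in Col and 776 in the atphb3-labelled library, and P4H5, which acts on extensins in root hairs, had 866 and 1143, a ratio of 1.33 (1.22 to 1.46). Among the glycosyltransferases that add sugars to extensins 5 were measured and 0 were at least 2-fold apart, with a median of 0.29. XEG113, an arabinosyltransferase, had 1521 and 1895 reads (ratio 1.26), and AT3G01720, for which RefSeq gave no symbol, had 1290 and 1989, a ratio of 1.56 (1.45 to 1.67) and the highest of the 5. RRA3, which acts before XEG113, had 1012 and 1128 (ratio 1.12). These related lists were drawn up by function, with earlier results of these data known.

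Of 9 genes for receptors and peptides that work with LRX proteins, 1 passed 2-fold upward and 0 downward, where 9.74% of all measured loci passed upward and 10.1% downward. That gene was RALF23, a secreted peptide, with 107 reads in Col and 257 in the atphb3-labelled library, a ratio of 2.42 (1.93 to 3.07). FER, the FERONIA receptor kinase that binds RALF peptides, had 4252 and 3526 reads, a ratio of 0.837 (0.800 to 0.875). The list's median log2 ratio was 0.34.

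Root hair genes were compared next, with 9.74% of all measured loci past 2-fold upward as the background. Of the bHLH factors that switch on root hair growth 6 were measured, and 2 of them passed 2-fold upward and 0 downward (median log2 ratio 0.94). RHD6, which starts the programme, had 81 reads in Col and 180 in the atphb3-labelled library, a ratio of 2.24 (1.72 to 2.95), and LRL2 had 220 and 708, a ratio of 3.25 (2.79 to 3.80). RSL4, which sets root hair length, had 81 and 72 reads, a ratio of 0.897. Among 8 other root hair growth genes 1 passed 2-fold upward and 0 downward (median log2 ratio 0.68), a share near the background. All of them had an interval wholly above 1, against 37.7% of all measured loci. Their ratios ran from 1.29 in PRP1 to 2.25 in COBL9. The gene past 2-fold was COBL9, a wall protein of root hairs, with 231 and 516 reads and a ratio of 2.25 (1.93 to 2.64). Of the epidermal pattern regulators 3 were measured and 0 were at least 2-fold apart. WER, which specifies non-hair cells, had 75 and 38 reads, a ratio of 0.511, and GL3 had 53 and 68.

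**Figure D5:**
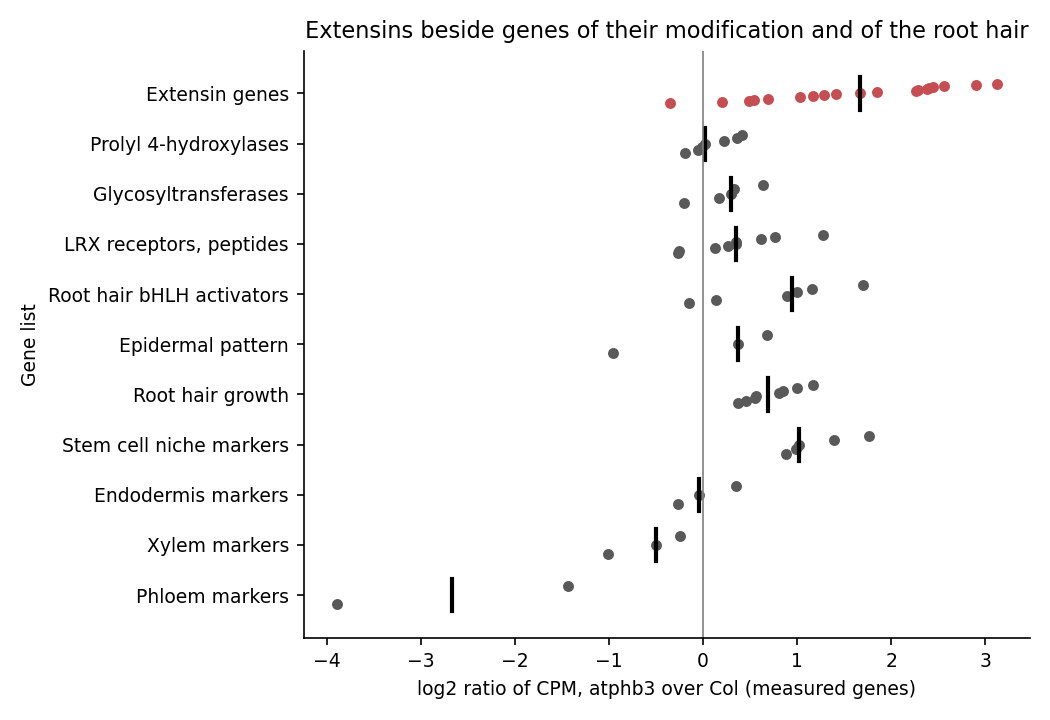
Log2 ratio (atphb3 over Col) of each measured gene in the extensin list, in 6 related lists and in 4 marker lists, 1 point per gene with a vertical bar at the median of each list. The members have a median of 1.67, against 0.02 for prolyl 4-hydroxylases and 0.94 for the root hair bHLH factors.

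Markers of cell types also differed between the libraries, and their part in the extensin values was not tested. For the counts of markers, the share of all measured loci past 2-fold was 9.74% upward and 10.1% downward. The 5 root hair markers, all measured and all among the 8 root hair growth genes above, had 1 member (COBL9 again) at least 2-fold higher and a sum of 383 CPM in Col against 678 CPM in the atphb3-labelled library. The 5 markers of the stem cell niche summed to 129 and 265 CPM, with 3 at least 2-fold higher. The 3 root cap markers summed to 14.9 and 30.9 CPM, with 1 of 2 measured ones at least 2-fold higher. The 3 endodermis markers summed to 286 and 275 CPM, with 0 at least 2-fold apart. The sums were lower in the atphb3-labelled library for xylem, phloem and leaf markers. They were 382 and 217 CPM for xylem, 261 and 51.3 for phloem, and 88.2 and 13 for leaf. Of the measured markers, 1 of 3 for xylem, 2 of 2 for phloem and 3 of 3 for leaf were at least 2-fold lower. XCP2, the xylem marker past the limit, alone gave 258 and 128 CPM. The 2 markers of non-hair cells, neither of them measured, summed to 4.97 and 6.09 CPM. Pollen markers, for which RefSeq gave the symbol of 2 of 6, summed to 93.0 and 36.6 CPM, with 2 of 4 measured ones at least 2-fold lower. Those 2 were AT2G15880 and AT3G19020, already counted above among the loci with serine-proline runs. Of the sums, AT2G15880 alone gave 64.7 and 12.9 CPM.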

How the data were processed

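RNA-seq of 1 Col and 1 atphb3 library was analysed from a single deposited table of 26425 transcripts. Per the file headers, the authors gave a read count and an RPKM value per library, and for each transcript a log2 ratio and a p-value with its false discovery rate. For transcripts with reads in Col, where this was checked, the RPKM was the count divided by transcript length and library total. A locus with 0 reads in Col, such as EGL3, carried an RPKM of 0.01. The deposited log2 ratio and p-value were not used. Aligner, counter, read length and genome build are not given in the sources used here. Per the labels' protocols, cDNA was random-primed and read on an Illumina sequencer.

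Counts were summed per locus and scaled to the library total as CPM, where 1 read equalled 0.134 CPM in Col (0.135 in the second library). Log2 ratios were taken after adding 0.5 reads, and ratios of single loci without it. Limits were 50 reads in at least 1 library and 2-fold. Sequences, symbols and gene starts came from RefSeq TAIR10.1. All 23 deposited spans lay over their RefSeq locus, and 21 wholly inside it. Sequences use RefSeq coordinates and gene spans those of the deposited table.

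Members and lists were chosen with earlier results of these data known. Named members were the 10 with the highest mean RPKM, those at least 2-fold apart (up to 12 a direction), the 2 with most reads in each family, and those at the limits. In each related list up to 4 measured genes at least 2-fold apart were eligible, or otherwise the 2 with most reads. Other named genes were chosen after their values were seen.

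Alternatives were scaling by TMM with edgeR 4.0.16 or by median of ratios with DESeq2 1.42.0, other totals, RPKM, pseudocounts, filters, limits and member rules. Python 3.11.15, numpy 2.4.6, pandas 2.3.3, scipy 1.17.1 and R 4.3.3 were used. The calculations were tested on simulated counts.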

Additional observations from a re-analysis of the deposited data

How the results depend on the processing

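No paired analysis was possible because each genotype had 1 library without a replicate number, and for the same reason no replicate could be left out. The ratio of summed member reads, 2.23, was 2.14 with TMM scaling, 2.17 with median of ratios scaling, 2.13 without the 10 most abundant loci in the total, 2.09 from the authors' RPKM and 4.25 without the 3 most abundant members. TMM, median of ratios and the total without the 10 most abundant loci moved all log2 ratios by -0.07, -0.04 and -0.07 in turn. The count of higher members, 14, was 13 under each of these scalings and stayed 14 from the authors' RPKM. It was 8 at a limit of 4-fold. The count of lower members, 0, became 1 with no filter on reads, 1 with Pollen Ole e names included, and 2 when loci were chosen by 10 or more serine-proline runs. The median log2 ratio, 1.67, became 1.42 without members that share over 10% of their 50-base windows with another member, 1.18 with Pollen Ole e names, 1.23 with loci named extensin only in RefSeq and 1.42 by the repeat rule. The last pair of rules was added after the data had been seen. The median of the epidermal pattern regulators, 0.37 over 3 genes, became -0.29 over 2 genes when 50 reads were required on average. The gene that this filter removed was CPC, another regulator of that list, with 35 reads in Col and 56 in the atphb3-labelled library. In the other settings 30 counts, 11 medians over all members, 52 list values and 1 sum stayed within the limits set for a change. At these depths 4 members were too shallow to compare.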
